A study of Mus musculus with 6 samples.

Results

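The expression of 40 genes of the cell division cycle was followed in cardiomyocyte preparations from pressure-overloaded mouse hearts, with and without the long noncoding RNA H19. The 40 genes were fixed by name, and an array row belonged to one of them when its gene name in the scanner file was that symbol. The array carries 35527 gene names in all. A gene was represented by its brightest probe over all arrays, and 35 of the 40 had a probe bright enough to be tested, among 21920 tested genes.

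Adult H19 KO mice were set against wild-type littermates. Both genotypes had undergone transverse aortic constriction (TAC), a narrowing of the aorta that overloads the left ventricle, and both were sampled 6 weeks later. There were 3 KO arrays and 3 wild-type (WT) arrays, and hearts without TAC were not analysed here. The labels used here give neither the deleted part of H19, the strain, the sex nor the age in weeks, and they do not say whether an array holds 1 animal or a pool; p-values therefore measure the spread between these samples, which may be partly technical. Total RNA came from cells released by retrograde perfusion of the heart with no sorting step named, so the preparations can hold other cells.

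A cell enters the cycle when D cyclins, with CDK4 or CDK6, and then cyclin E, with CDK2, phosphorylate the pocket proteins Rb1, Rbl1 and Rbl2. This frees E2F factors, which switch on genes for DNA replication, and later A and B cyclins with CDK1 drive mitosis. Adult mouse cardiomyocytes have largely left the cycle, enlarge rather than divide under pressure overload, and can copy DNA without dividing, while fibroblasts, endothelial cells and immune cells of the same heart can still divide.

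Levels are log2 of the background-subtracted spot intensity minus the array's 75th percentile. A level of 0 is as bright as that percentile, and 1 unit is 2-fold. Levels are compared between arrays for 1 probe and never between probes. A difference is KO minus WT, tested with limma and adjusted by the Benjamini-Hochberg method over all tested genes. The targeted RNA checked the labels: H19 stood at -5.67, -6.41 and -5.97 in the KO arrays, against 1.69, 0.74 and 0.84 in the WT arrays. Its probe was well above background on 0 of 3 KO arrays and on 3 of 3 WT arrays, with an adjusted p of 0.00184 in limma. The share of an array's spots that were called well above background was lowest in KO replicate 1, at 48.8%, and highest in KO replicate 2, at 58.6%. All 10 cardiomyocyte markers, Myh6 and Tnnt2 among them, were well above background on all 6 arrays, but so were 10 of 10 fibroblast, 9 of 9 endothelial, 7 of 7 mural and 12 of 12 macrophage markers. Markers of these other cell types were thus measured in preparations labelled as cardiomyocytes.

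Most of the cycle machinery was measurable in these preparations. Of the 40 genes, 33 were well above background on all 6 arrays and 36 on at least 1. The tested 35 are 87.5% of the 40, while 61.7% of all gene names on the array had a brightest probe that met the same filter of 3 arrays. The number of cycle genes above background was 33, 36 and 35 in the KO arrays, against 33, 34 and 36 in the WT arrays, so the counts overlapped between genotypes.

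The 5 genes that were not tested came from several steps of the cycle. Cdk6 (a partner of D cyclins), Ccne2 (cyclin E2), Cdk1 (the mitotic kinase) and Aurkb (the kinase of the chromosomal passenger complex) were well above background on 0 arrays. Cdk1 was represented by 3 probes, and none of the 3 reached that mark on any array. Bub1, a spindle checkpoint kinase, was above background on 2 arrays, 1 of each genotype. Top2a, tested on 3 such arrays, and Ccnb1, on 4, were the next dimmest. For all of these the signal limits what can be read, and a spot that is not well above background does not show that the RNA is missing.

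No cycle gene passed the test between the genotypes. With limma, 0 of 35 had an adjusted p under 0.05 and 0 of 35 an unadjusted p under 0.05. Over all tested genes 0.0365% passed after adjustment and 7.92% before it. Cdk2 came closest, with an unadjusted p of 0.0622 and an adjusted p of 0.638 in limma. Of the differences, 25 were below 0 and 10 above it, with a median of -0.08, while the median of all tested genes was -0.05, with 60.1% below 0.

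The intervals show what size of difference these arrays could have hidden. For 28 of the 35 genes, 80.0%, the 95% interval of the difference lay within 2-fold in either direction, and the same held for 72.3% of all tested genes. The intervals of the other 7 reached past it: those of Mki67, Top2a, Ccna2, Ccnb1, E2f2, Mcm2 and Mcm6. For these 7 genes a 2-fold difference lies inside the interval that 3 arrays per genotype give. Each interval is for a single gene and is not adjusted for the number of genes tested. In a simulation only 7 of 50 planted 2-fold changes and 0 of 50 planted 1.5-fold changes were recovered. The planted genes were drawn at random from all tested genes, not from the 35. The adjusted test alone, with 0 of 35 passing, therefore says little about differences of these sizes. At 2-fold the intervals of the 28 genes say more, gene by gene.

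**Figure D1:**
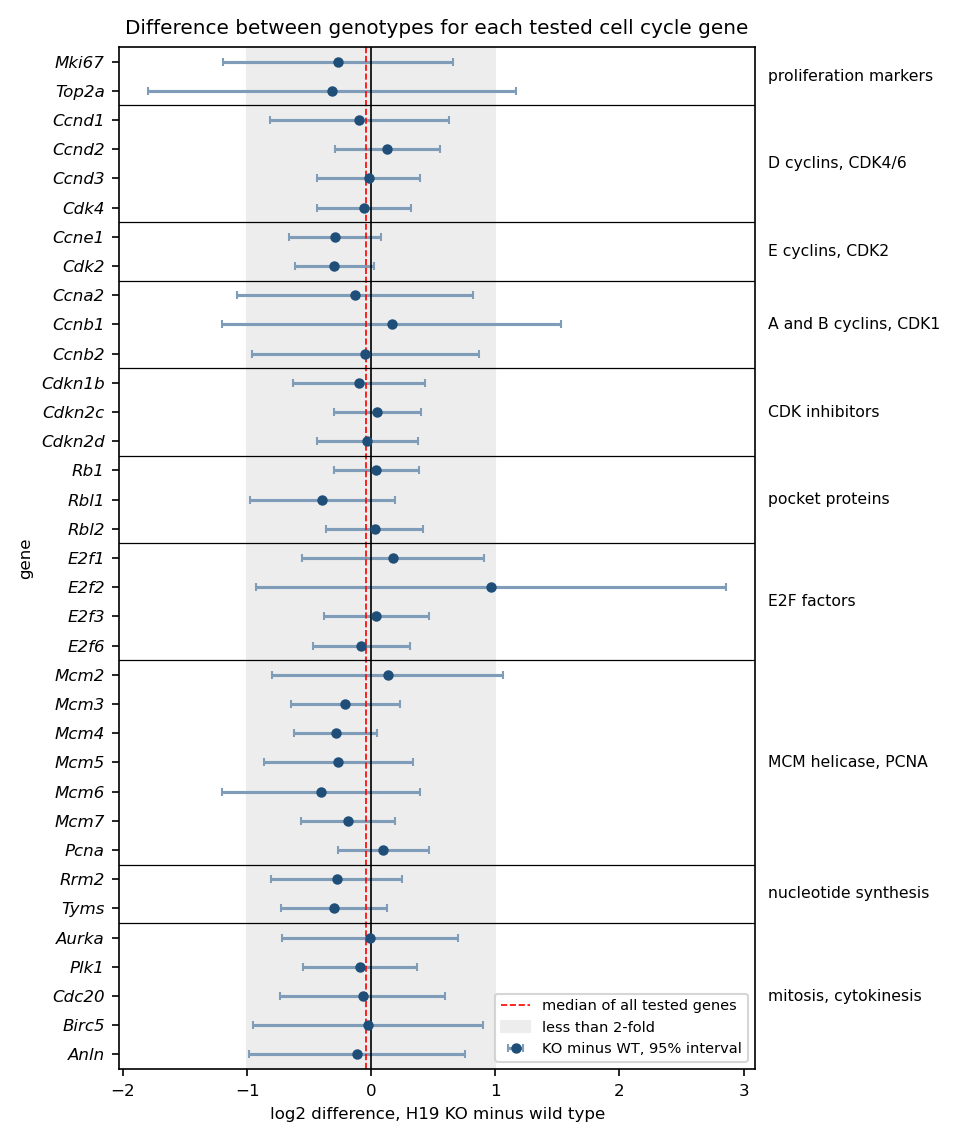
Difference between H19 KO and wild-type arrays (log2, KO minus WT) for each tested cell cycle gene, by role. Points are limma estimates from 3 arrays per genotype, bars are 95% intervals, the grey band is less than 2-fold and the dashed red line is the median of all tested genes. Every interval crosses 0, and that of E2f2 is the widest.

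In all, 3 genes had all KO arrays below all WT arrays: Cdk2, Ccne1 and Mcm4. That is 8.57% of the 35, and 8.36% of all tested genes had the same order, so the share is that of the background. The opposite order, all KO arrays above all WT arrays, was found in 0 of the 35 and in 2.11% of all tested genes.

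The kinase that cyclin E activates, CDK2, was among these. Cdk2 (probe at chr10:128135658-128135717, minus strand, mm9) had levels of -0.44, -0.42 and -0.34 in the KO arrays, against -0.08, -0.08 and -0.15 in the WT arrays. The KO arrays lay close together, as did the WT arrays, and the gap was narrow. The difference was -0.30 (SE 0.13), with an interval of 0.65-fold to 1.01-fold KO over WT. Ccne1, which encodes cyclin E1, stood at -0.32, -0.38 and -0.57 in KO, against -0.23, -0.20 and 0.03 in WT. Its highest KO array and its lowest WT array were nearly level, and the difference of -0.29 (SE 0.16) had an adjusted p of 0.681 in limma. For Cdk2 the difference was -0.36 on slide 1 and -0.27 on slide 2. For Ccne1 it was -0.10 on slide 1 and -0.39 on slide 2. With all KO arrays below all WT arrays, the sign on each slide was fixed beforehand and adds no support. Slide 1 holds replicate 1 of each genotype and slide 2 holds the others.

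D cyclins and their kinase, which link growth signals to the cycle, were above background on all 6 arrays, Cdk6 apart. Ccnd1 (cyclin D1) stood at 1.99, 3.09 and 2.31 in KO arrays, against 2.86, 2.38 and 2.43 in WT arrays. KO held both the lowest and the highest array, and the difference was -0.09 (SE 0.30). Ccnd2 (cyclin D2) had levels of 5.23, 5.18 and 5.04 in KO, against 4.73, 5.12 and 5.22 in WT, with a difference of 0.13 (SE 0.18). Ccnd3 (cyclin D3) differed by -0.02 (SE 0.17) and Cdk4 by -0.06 (SE 0.16). Second probes of these genes gave differences of 0.01 for Ccnd3 and 0.04 for Cdk4, so the sign of such small values turned with the probe.

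The CDK inhibitors among the 40 genes had differences of similar size. Cdkn1b (p27, an inhibitor of cyclin E and cyclin A kinases) stood at 1.79, 1.48 and 2.16 in KO arrays, against 1.68, 2.16 and 1.87 in WT arrays. The groups overlapped, with a difference of -0.10 (SE 0.22). Cdkn2c and Cdkn2d, the INK4 inhibitors p18 and p19 that bind CDK4 and CDK6, differed by 0.05 (SE 0.15) and -0.03 (SE 0.17).

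Rb1 and Rbl2, of the 3 pocket proteins, had differences near 0. Rb1, the retinoblastoma protein, had levels of 3.19, 3.16 and 3.01 in KO, against 3.17, 2.97 and 3.10 in WT, with a difference of 0.04 (SE 0.14). Rbl2 (p130, the family member known from resting cells) differed by 0.03 (SE 0.16). Rbl1 (p107, known from cycling cells) stood at -1.76, -0.94 and -1.28 in KO, against -0.68, -0.94 and -1.17 in WT. Its difference of -0.40 (SE 0.25) was -1.08 on slide 1 and -0.05 on slide 2. KO replicate 1 was the lowest array and WT replicate 1 the highest, both on slide 1. A second Rbl1 probe stood at -2.58, -2.35 and -2.29 in KO, against -1.70, -2.11 and -2.23 in WT. The difference at that probe was -0.39, with no overlap between genotypes.

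Of the E2F factors, E2f2 spread most. This activator (probe at chr4:135750562-135750621, plus strand, mm9) had levels of -3.02, -0.61 and -0.04 in the KO arrays, against -1.37, -3.10 and -2.09 in the WT arrays. Both genotypes held an array near -3, and KO replicates 2 and 3 were the highest. The difference of 0.96 (SE 0.80) had an interval of 0.52-fold to 7.26-fold, and it was -1.65 on slide 1 and 2.27 on slide 2. Markers of other cells varied over the same arrays: of 9 lymphocyte markers 5 were tested, and their mean level, relative to each gene's own mean over the 6 arrays, was -0.57, 0.58 and 1.15 in KO, against 0.41, -0.46 and -1.11 in WT. The 3 tested erythroid markers, red cell globins among them, were at -2.39, 3.13 and -0.46 in KO, against 2.46, -1.18 and -1.56 in WT. Their part in the E2f2 values was not tested.

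The other E2F genes were narrower. E2f1, the activator most tied to entry into DNA synthesis, stood at -3.04, -2.47 and -1.79 in KO, against -2.75, -2.60 and -2.48 in WT, a difference of 0.18 (SE 0.31). KO held both ends of that range. E2f3 differed by 0.04 (SE 0.18), with -0.23 at a second probe, and the repressor E2f6 by -0.08 (SE 0.17).

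Replication genes had small differences, mostly below 0. The MCM proteins form the helicase that opens DNA at replication origins, and 5 of the 7 genes in the group of Mcm2 to Mcm7 and Pcna had a difference below 0, with a median of -0.21. Mcm4 (probe at chr16:15624372-15624431, minus strand, mm9) had levels of 2.55, 2.67 and 2.50 in KO arrays, against 2.78, 2.85 and 2.96 in WT arrays. The groups did not overlap, and the difference was -0.29 (SE 0.14, adjusted p = 0.658 in limma, interval 0.65-fold to 1.04-fold). Mcm6 stood at 0.97, 2.31 and 1.88 in KO, against 2.06, 1.99 and 2.34 in WT. KO replicate 1 alone was low: the difference of -0.41 (SE 0.34) was -1.09 on slide 1 and -0.07 on slide 2. Mcm3, Mcm5 and Mcm7 differed by -0.21 (SE 0.18), -0.26 (SE 0.25) and -0.19 (SE 0.16), and Mcm2 by 0.13 (SE 0.39). Pcna, the sliding clamp of DNA polymerases, had levels of 4.93, 4.77 and 4.98 in KO, against 4.66, 4.76 and 4.96 in WT, with a difference of 0.10 (SE 0.15).

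Both enzymes of nucleotide supply were on the same side. Rrm2, a subunit of ribonucleotide reductase, stood at 1.19, 1.44 and 1.81 in KO, against 1.62, 1.59 and 2.06 in WT. Tyms, thymidylate synthase, stood at -2.50, -2.10 and -2.55 in KO, against -2.23, -2.06 and -1.95 in WT. The genotypes overlapped in both genes, and the differences were -0.28 (SE 0.22) and -0.30 (SE 0.18).

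Promoters of replication genes are known targets of E2F factors. Windows from 250 bases before to 50 bases after the gene start, taken from RefSeq (assembly GRCm38.p6), existed for 33 of the 40 genes, in 38 windows. Ccna2, Ccnd1, Ccnd2, Ccne2, Rb1, Mcm4 and Aurkb had none. The E2F motif was searched on both strands as TTTCCCGC or TTTCGCGC or TTTGCCGC or TTTGGCGC. It was present in 4 of 6 windows of MCM genes, belonging to Mcm3, Mcm5, Mcm6 and Mcm7, and in 9 of the 38 windows (23.7%), against 2.26% of 32851 windows of all genes. Mcm3, Mcm5 and Mcm6 each have more than 1 match and had their lowest level in KO replicate 1. Mcm7 also has 2 matches in 1 of its windows, but its lowest level was in KO replicate 2. Mcm6 and Mcm3 are shown as examples, and a link between the motif and the levels was not tested. Capitals mark the E2F motif and the CCAAT box, on either strand, and 2 of the 3 E2F matches of Mcm6 overlap each other. Mcm6 lies at chr1:128359656-128359955 and Mcm3 at chr1:20820263-20820562, both on the minus strand.
Mcm6: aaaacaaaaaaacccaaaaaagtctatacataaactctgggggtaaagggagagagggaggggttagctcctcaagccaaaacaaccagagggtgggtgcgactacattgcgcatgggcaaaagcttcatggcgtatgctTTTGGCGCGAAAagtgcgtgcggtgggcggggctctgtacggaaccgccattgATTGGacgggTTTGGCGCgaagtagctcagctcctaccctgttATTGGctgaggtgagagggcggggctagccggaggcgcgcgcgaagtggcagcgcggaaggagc
Mcm3: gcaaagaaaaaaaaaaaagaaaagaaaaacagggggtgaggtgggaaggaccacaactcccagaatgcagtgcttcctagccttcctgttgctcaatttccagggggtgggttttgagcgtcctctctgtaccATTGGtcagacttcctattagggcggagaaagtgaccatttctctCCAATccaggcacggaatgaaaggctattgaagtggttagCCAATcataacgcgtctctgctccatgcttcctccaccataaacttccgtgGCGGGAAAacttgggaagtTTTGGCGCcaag
A match is a description of the letters and not of binding, which was not measured here.

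The mitotic genes varied together from array to array, far more than they differed between genotypes. These are the A and B cyclins, the genes of mitosis and cytokinesis and the proliferation markers, 10 tested genes that were joined into 1 group after their values had been seen. Their mean level, relative to each gene's own mean over the 6 arrays, was -0.85, 0.36 and 0.35 in the KO arrays, against -0.13, -0.20 and 0.46 in the WT arrays. KO replicate 1 was the lowest by a wide margin and WT replicate 3 the highest, and the other KO arrays lay above the other WT arrays. The median SD within genotypes was 0.59 for these 10 genes, against 0.20 for the other 25 cycle genes and 0.25 for all tested genes. A wide spread was not particular to the mitotic genes. It was 0.74 for fibroblast, 0.91 for lymphocyte, 0.51 for macrophage and 0.44 for endothelial markers, though 0.13 for cardiomyocyte markers.

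Mki67 encodes the proliferation antigen Ki-67, found in cycling cells of any type. Its levels (probe at chr7:142881591-142881650, minus strand, mm9) were -1.29, 0.02 and -0.07 in KO, against -0.44, -0.39 and 0.31 in WT. The first KO array was the low one, and the other KO arrays lay inside the WT range. The difference was -0.27 (SE 0.39), which allows 0.44-fold to 1.58-fold, and a second Mki67 probe gave -0.35. Top2a, the topoisomerase that untangles replicated chromosomes, had levels of -5.34, -3.68 and -2.66 in KO, against -3.58, -3.92 and -3.24 in WT. KO again held both ends, and the difference was -0.32 (SE 0.63).

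The cyclins of late S phase and mitosis had the same low array. Ccna2 (cyclin A2) stood at -2.59, -1.38 and -1.25 in KO, against -1.85, -1.89 and -1.08 in WT. Ccnb1 (cyclin B1) stood at -3.65, -1.77 and -2.00 in KO, against -3.14, -3.01 and -1.76 in WT. Ccnb2 (cyclin B2) stood at -1.39, -0.01 and -0.11 in KO, against -0.52, -0.73 and -0.12 in WT. In each of them KO replicate 1 was the lowest of 6 arrays, while KO replicates 2 and 3 were above WT replicates 1 and 2. Over all 6 arrays the differences were -0.13 (SE 0.40), 0.16 (SE 0.58) and -0.05 (SE 0.39).

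Of the 5 tested genes of mitosis and cytokinesis, 4 were lowest in KO replicate 1. Birc5 (survivin, of the chromosomal passenger complex) had levels of -1.05, 0.09 and 0.08 in KO, against -0.43, -0.70 and 0.33 in WT. Anln (anillin, a scaffold of the contractile ring) stood at -2.23, -0.77 and -1.34 in KO, against -1.51, -1.47 and -1.02 in WT. Plk1, a mitotic kinase, stood at -2.51, -2.07 and -1.90 in KO, against -2.06, -2.17 and -1.99 in WT. KO replicate 1 was the lowest array in all 3. KO replicates 2 and 3 were both above WT replicates 1 and 2 in Birc5 and Anln, but not in Plk1. A second Birc5 probe, well above background on 3 arrays, gave a difference of -0.51. There KO replicate 1 was again the lowest array, but KO replicates 2 and 3, at -3.53 and -3.46, were below WT replicate 1, at -3.34. Cdc20, an activator of the anaphase-promoting complex, was also lowest in KO replicate 1, with its KO replicate 3 below WT replicate 1 and a difference of -0.07 (SE 0.28). Aurka, a kinase of the spindle poles, was the exception, with -2.62, -2.00 and -2.17 in KO, against -2.75, -2.31 and -1.69 in WT, and its lowest array was WT replicate 1. At the brightest probes, the differences over all arrays were between -0.11 for Anln and -0.01 for Aurka in this group.

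**Figure D2:**
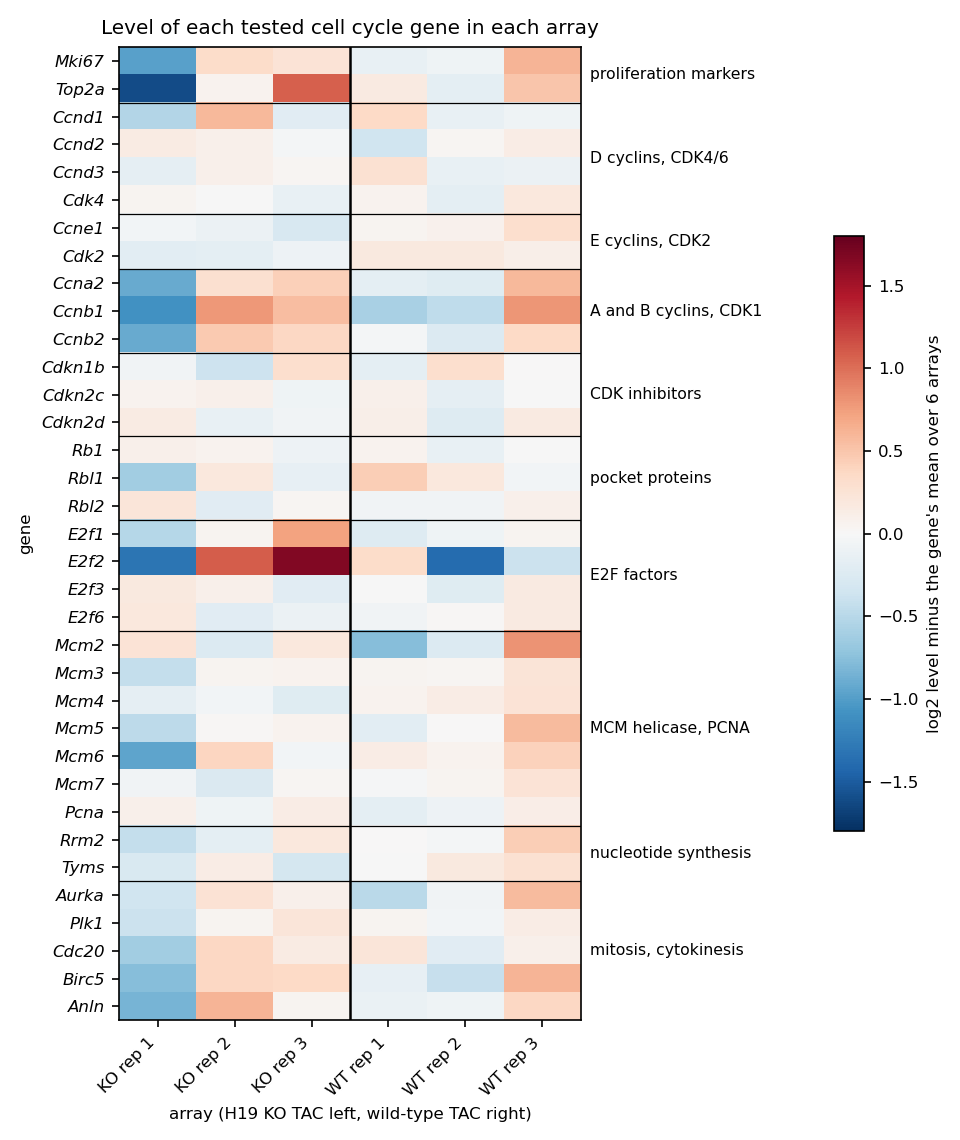
Level of each tested cell cycle gene in each array, as log2 level minus the gene's own mean over the 6 arrays (red above, blue below), with KO arrays left and wild-type arrays right and genes ordered by role. The KO replicate 1 column is blue in 9 of the 10 mitotic genes where it holds the lowest level, and in Aurka it is pale blue; the WT replicate 3 column is mostly red.

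Which slide is read turns the direction of these genes. On slide 1 the median difference of the 10 mitotic genes was -0.73, with 9 of 10 below 0. On slide 2 it was 0.23, with 1 of 10 below 0. With KO replicate 1 left out, all 10 had a difference above 0 and their median was 0.29, against a median of -0.10 for all tested genes, and 0 of the 35 cycle genes passed the limma test. The other 25 cycle genes had a median of -0.08 with all arrays and of -0.07 without KO replicate 1. No test of the mitotic genes as a group was made, since KO replicate 1 is 1 sample and the group was formed on these values.

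Across all 35 genes KO replicate 1 held the lowest of the 6 levels 18 times (51.4%), against 14.6% of all tested genes. The share was 9 of 10 in the mitotic genes and 9 of 25 in the rest. It was also 7 of 9 in endothelial and 8 of 12 in macrophage markers, but 0 in fibroblast, lymphocyte and mural markers. WT replicate 3 held the highest level in 16 of the 35 (45.7%), against 18.8% of all tested genes, and the lowest in 0. Dim genes were lowest in KO replicate 1 more often than bright ones: it held the lowest level in 21.8% of the dimmer and 7.40% of the brighter 10960 tested genes, and in 13 of 18 cycle genes that were dimmer and 5 of 17 that were brighter. The scaling moves these counts. With arrays scaled to the median of their probes, KO replicate 1 was lowest in 6 of the 35 cycle genes, and with quantile normalization in 15. KO replicate 1 was lowest in 7 of the 10 mitotic genes after quantile normalization, in 10 of 10 after normexp background correction, and in 4 of 10 when arrays were scaled to the median of all probes, where it was lowest in 6.79% of all tested genes.

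**Figure D3:**
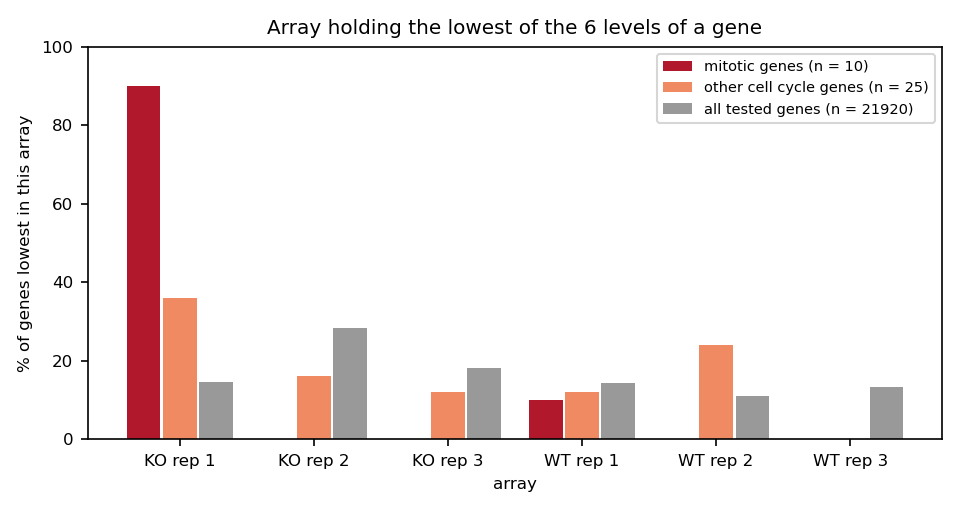
Share of genes (%) whose lowest of 6 levels lies in each array, for the 10 mitotic genes, the other 25 cell cycle genes and all 21920 tested genes. KO replicate 1 holds the lowest level of 9 of 10 mitotic genes and of 14.6% of all tested genes; when arrays are scaled to their median it holds 4 of 10.

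Markers of other cell types moved over the same arrays. The 12 macrophage and myeloid markers had mean relative levels of -0.64, 0.48 and -0.53 in KO, against 0.02, 0.10 and 0.56 in WT. Like the mitotic genes, these markers were lowest in KO replicate 1 and highest in WT replicate 3, but they were low in KO replicate 3, where the mitotic genes were high. Of 5 neutrophil markers 3 were tested, and their mean too was lowest in KO replicate 1 and highest in WT replicate 3. That mean was -2.65, 1.53 and -1.17 in KO, against 1.40, -1.45 and 2.33 in WT. Signal limits these values: S100a8 and Camp were well above background on only 3 arrays each, and Camp itself was lowest in WT replicate 2. The 10 fibroblast markers had -0.41, 1.28 and 0.06 in KO, against 0.29, -0.42 and -0.80 in WT. The 9 endothelial markers had -0.36, 0.40 and 0.12 in KO, against 0.25, -0.10 and -0.31 in WT. Both of these lists were low in KO replicate 1, and both were lowest or nearly so in WT replicate 3, where the mitotic genes were highest. The 10 cardiomyocyte markers stayed within 0.08, -0.19 and 0.02 in KO, against -0.04, 0.07 and 0.07 in WT. The part of these cells in the cycle gene values was not tested, and in bulk RNA fewer cells of a type and less RNA per cell cannot be told apart.

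**Figure D4:**
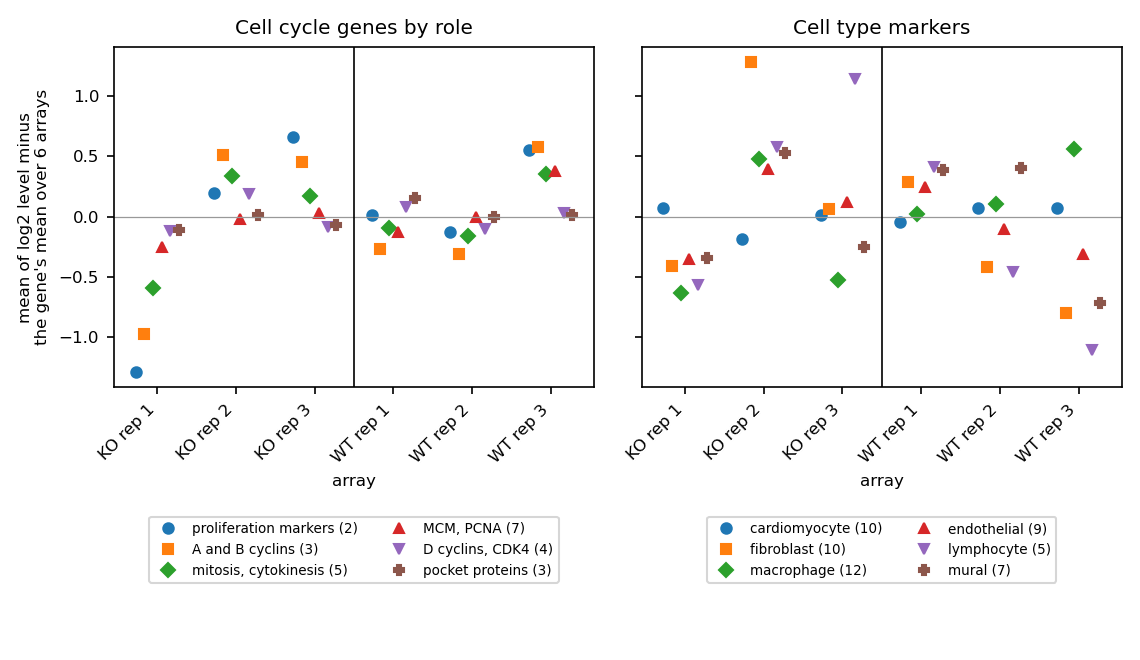
Mean level by array for groups of cell cycle genes (left) and cell type markers (right), each gene taken relative to its own mean over the 6 arrays (log2), with KO arrays left of wild-type arrays and the number of tested genes in parentheses. Proliferation markers, A and B cyclins and mitotic genes are lowest in KO replicate 1, where fibroblast, macrophage, endothelial and lymphocyte markers are also below 0 and cardiomyocyte markers are at 0.08.

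Mitotic promoters are known for the CHR element together with CCAAT boxes. The CHR was searched as TTTGAA and the box as CCAAT, both strands, in the same RefSeq windows. Both motifs together were present in 10 of 38 windows of the cycle genes (26.3%), against 6.95% of all windows. They were in both proliferation marker windows, in 2 of 3 windows of A and B cyclins with Cdk1, and in 3 of 6 windows of mitosis and cytokinesis genes (Aurka, Cdc20 and Plk1). The remaining windows with both motifs were those of E2f2, E2f3 and Mcm2, which are not mitotic genes. Ccnb2 and Cdc20 are shown as 2 genes that hold both motifs and had their lowest level in KO replicate 1. Aurka, E2f2, E2f3 and Mcm2 hold both motifs too, and their lowest level was in a WT array. A link between the motifs and the levels was not tested. Capitals mark the CHR and the CCAAT boxes. Ccnb2 lies at chr9:70421505-70421804 and Cdc20 at chr4:118437294-118437593, both on the minus strand of GRCm38.p6.
Ccnb2: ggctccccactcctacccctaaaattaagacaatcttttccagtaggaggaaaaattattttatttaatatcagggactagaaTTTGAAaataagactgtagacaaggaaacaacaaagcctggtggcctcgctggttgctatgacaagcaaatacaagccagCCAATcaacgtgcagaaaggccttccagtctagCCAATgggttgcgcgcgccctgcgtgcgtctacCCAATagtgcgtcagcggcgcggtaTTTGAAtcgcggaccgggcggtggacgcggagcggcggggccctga
Cdc20: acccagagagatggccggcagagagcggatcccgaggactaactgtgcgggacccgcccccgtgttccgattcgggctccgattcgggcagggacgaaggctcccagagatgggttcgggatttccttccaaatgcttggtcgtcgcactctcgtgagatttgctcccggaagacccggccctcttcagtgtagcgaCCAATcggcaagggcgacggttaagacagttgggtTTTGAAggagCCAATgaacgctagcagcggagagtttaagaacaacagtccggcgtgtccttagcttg
In the Ccnb2 window there are 2 CHR matches and 3 CCAAT boxes, and in that of Cdc20 1 CHR match and 2 boxes. Birc5, also lowest in KO replicate 1, has neither motif in its window.

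A wider set of 88 cycle genes outside the 40 gave similar values. Of these, 74 were tested and 0 passed limma's test, with 0 at an unadjusted p under 0.05. Of these differences, 54 were below 0 and 20 above it, with a median of -0.12. In 8 of the 74 all KO arrays were below all WT arrays, and in 1 all KO arrays were above; over all tested genes the shares were 8.36% and 2.11%.

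In the G1/S transition list most differences were below 0. Of 22 tested, 19 had a difference below 0, with a median of -0.25, and 5 had all KO arrays below all WT arrays. Over all tested genes 60.1% of differences were below 0, and 8.36% had all KO arrays below. Among them were Gins2 (of the replicative helicase complex), Cdt1 (which loads MCM proteins), Pole (the leading-strand polymerase) and Prim1 (a primase subunit). Gins2 stood at -2.17, -2.19 and -2.22 in KO, against -1.90, -1.96 and -1.35 in WT. Its difference was -0.45 (SE 0.20, adjusted p = 0.633 in limma). Cdt1 stood at -0.03, 0.36 and 0.56 in KO, against 0.64, 0.61 and 1.08 in WT, a difference of -0.48 (SE 0.22).

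The wider list of G2 and mitosis genes was also below 0 in most cases. Of 32 tested, 23 had a difference below 0, with a median of -0.13, and KO replicate 1 was the lowest array in 16. Their median was -0.36 on slide 1 and -0.04 on slide 2, where 20 of the 32 were below 0; of the 10 mitotic genes named earlier, 1 was below 0 there. Espl1 (separase), Nuf2 and Ndc80 (kinetochore) and Pkmyt1 (an inhibitory kinase of CDK1) had the smallest p-values of the list, none of them under 0.05 before adjustment. Pkmyt1 stood at -2.29, -1.46 and -1.65 in KO, against -1.43, -1.35 and -1.17 in WT, with no overlap and a difference of -0.48 (SE 0.24).

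Inhibitors and arrest genes held the gene with all KO arrays above. Cdkn1a, which encodes the CDK inhibitor p21, a target of p53, had levels of 1.15, 1.21 and 1.62 in the KO arrays, against 0.89, 0.01 and 1.01 in the WT arrays. The lowest KO array lay just above the highest WT array, and WT replicate 2 stood far below the rest. The difference was 0.70 (SE 0.30), with an adjusted p of 0.629 in limma. Cdkn2a, an inhibitor locus that gives p16 and p19ARF, stood at -3.57, -2.20 and -2.91 in KO, against -2.35, -1.93 and -2.22 in WT, a difference of -0.73 (SE 0.34). Btg2, an antiproliferative gene, differed by 0.58 (SE 0.33) and Gadd45a, a stress gene, by -0.29 (SE 0.21). Of the 12 genes 7 were above 0 and 5 below, and 1 of the 5 had all KO arrays below all WT arrays.

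Among 8 tested genes of the E2F and DREAM group, which represses cycle genes in resting cells, 7 differences were below 0. Rbbp4, a histone-binding subunit, was the exception, with 4.20, 3.12 and 3.53 in KO, against 3.14, 2.98 and 3.13 in WT. The high KO replicate 1 array carried most of its difference of 0.53 (SE 0.27), and the genotypes overlapped. E2f8, an atypical repressor, differed by -0.38 (SE 0.25) and Lin52, a core subunit, by -0.21 (SE 0.15).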

How the data were processed

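Per the labels, cardiomyocyte RNA was labelled with 1 dye and put on Agilent mouse arrays. Per the file headers, Agilent Feature Extraction 10.7.3.1 gave each spot a background-subtracted processed intensity that is not normalized between arrays, with flags for spots well above background; probe positions are mm9. The authors' deposited value table, an intensity per spot, served as an alternative; each column is linear, has its median at 69.7 and ranks spots as the scanner's values do. Here control and outlier spots were left out, spots of a probe averaged, log2 taken and each array's 75th percentile subtracted. A probe had to be well above background on 3 or more of the 6 arrays, the brightest per gene name of the file was used, and KO minus WT was fitted in R 4.3.3 by lmFit and eBayes of limma 3.58.1, which gave all p-values, adjusted over 21920 genes. Changes of known size were planted in a simulation with 3 arrays per genotype. Of 50 planted changes per size, 0 were recovered at 1.5-fold, 7 at 2-fold, 34 at 4-fold and 39 at 8-fold. The 40 genes, the other lists and the rule for naming genes (all members; per other list the 4 smallest p, and genes without overlap) were chosen with earlier results of these data known. The values of 1 gene of the other lists are not reported here. The number of arrays limits the precision. Alternatives were normexp background correction (offset 50), other scalings, filters and probe rules, blocks, a variance trend, array weights and leaving out each array.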

Additional observations from a re-analysis of the deposited data

How the results depend on the processing

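No cycle gene of the 40 and none of the wider set passed limma's test under any other setting that allows a test, array weights apart. With array weights 6 of the 40 passed (Ccne1, Cdk2, E2f1, E2f2, Mcm4 and Tyms), 17 of the wider set and 5472 of all tested genes, but that estimate stopped before convergence, with a weight of 7.01 for KO replicate 3 and 5.21 for WT replicate 2 and at most 0.47 for any other array. Weights estimated gene by gene, added after seeing the data, gave 0 of the 40, 0 of the wider set and 12 of all tested genes. Over all tested genes, where 8 passed, 118 passed when arrays were scaled to their median, 3 with quantile normalization, 3 with the authors' deposited values, 1 with a filter of at least 1 array, 1 with no filter, 1 with slide as a block and 1 within slide 2; leaving out 1 array gave between 1 and 10. Scaling to the median of all probes moved the median of all tested genes to 0.37, that of the cycle genes to 0.34 and that of the wider set to 0.31, with all 35 cycle genes above 0, so the directions given are relative to the 75th percentile. Both scalings subtract 1 value per array, which shifts every gene's difference equally. The cycle genes' median of -0.03 relative to the all-gene median is therefore the same under both by construction. With 1 array left out, the median of the cycle genes was between -0.19 without KO replicate 2 and 0.03 without KO replicate 1. The arrays' replicate numbers do not pair them (correlations of same-numbered deviations of -0.22, -0.05 and 0.04); with a replicate block 1 gene passed over all tested genes and 0 of the cycle genes. The causes were not tested. Signal over background limits Top2a, Ccnb1 and the 5 untested genes.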
